A study of Mus musculus with 5 samples.

Results

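The genes described here are 10 genes of iron and metal handling, chosen by their symbols from the 33696 mouse genes in the gene lists of the study: *Trf*, *Tfrc*, *Cp*, *Fth1*, *Ftl1*, *Slc40a1*, *Hmox1*, *Mt1*, *Mt2* and *Mt3*. All 10 were found, each under 1 symbol. Their unique molecular identifier (UMI) counts, which count captured mRNA molecules per gene and cell, were taken from single-cell mRNA sequencing of sorted retinal cells. The study asked what becomes of Müller glia (MG) after transient activity of the growth regulator YAP, and it compared retinas infected with *Yap5SA* AAV with retinas infected with a control AAV. Both groups were *Glast-CreERT2*; *Rosa26-Ai65* mice on the *C57BL/6J* background, aged 12 to 20 weeks, males and females pooled, treated with tamoxifen. Control retinas (16, pooled) received an ShH10 AAV that carries *mKate2* and *FlpO* under the *Gfap* promoter (*mKate2* AAV), and the other retinas (21, pooled) received one that carries *Yap5SA* and *FlpO* under the same promoter (*Yap5SA* AAV). Ai65 gives tdTomato only where CreERT2, driven here from *Glast*, and *FlpO*, driven here from *Gfap*, have both acted, and tdTomato+ cells were sorted 56 days after the injection. There were 2 libraries of *mKate2* AAV and 3 of *Yap5SA* AAV.

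Iron reaches most cells bound to transferrin, is taken in through the transferrin receptor, is stored inside the ferritin shell and leaves through ferroportin after oxidation by a ferroxidase such as ceruloplasmin. Iron regulatory proteins adjust several of these steps by binding hairpins in the untranslated regions (UTRs) of the mRNAs, the iron-responsive elements. Metallothioneins are small proteins that bind zinc and copper, and genes of this family can be switched on by metals through metal-responsive elements in their promoters. MG span the retina and are known to exchange iron with the vessels and neurons around them, and pigment epithelium and glia make transferrin inside the eye.

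Iron-responsive elements in the reference sequence are printed because they are what the uptake, storage and export genes share that the choice by symbol did not use. A hairpin was searched for in all annotated UTRs of GENCODE vM39 as a loop CAGTGN, in capitals, where N is any base but G, with 5 paired bases on each side of it after an unpaired C. It was found in 4 of the 10 genes. Of 21594 protein-coding genes 160 (0.741%) held it in a UTR, 36 (0.167%) in a 5′ UTR and 124 (0.574%) in a 3′ UTR. *Tfrc* held it at 4 places in its 3′ UTR, on the plus strand of GRCm39, at chr16:32450039-32450063, chr16:32450418-32450442, chr16:32450483-32450507 and chr16:32450530-32450554. *Fth1* held it in its 5′ UTR at chr19:9960098-9960122 on the plus strand, *Ftl1* at chr7:45109205-45109229 on the minus strand and *Slc40a1* at chr1:45964627-45964651 on the minus strand. The sequences, 5′ to 3′ in the sense of the mRNA, were these.
Tfrc 3′ UTR site A: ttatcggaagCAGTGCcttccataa
Tfrc 3′ UTR site B: ttatcgggagCAGTGTcttccataa
Tfrc 3′ UTR site C: atatcggagaCAGTGAtctccatat
Tfrc 3′ UTR site D: ttatcgggaaCAGTGTttcccataa
Fth1 5′ UTR: cctgcttcaaCAGTGCttgaacgga
Ftl1 5′ UTR: cttgcttcaaCAGTGTttgaacgga
Slc40a1 5′ UTR: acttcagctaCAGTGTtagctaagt
A match is a description of the letters and not a measured binding site, and the counts below measure mRNA and not translation.

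The promoters of *Mt1* and *Mt2* are printed because these neighbouring genes varied together from cell to cell (median Spearman's rho 0.38 across MG). The search was for the core of the metal-responsive element, TGCACNC or TGCGCNC on either strand, in windows from 250 bases before to 50 bases after a start site, from RefSeq sequences of build GRCm38.p6. Windows were held for 7 of the 10 genes. The *Mt2* window held 4 matches, 3 of them in the 250 bases shown, and the *Mt1* window held 3, of which 1 is in the bases shown and the others lie after the start. Among 32851 windows 25.7% held at least 1 match, 1.97% at least 3 and 0.517% at least 4. *Tfrc* had 2 overlapping matches before the start in 1 of its 2 windows, *Mt3* had 1 match, after its start site, and *Cp*, *Fth1* and *Ftl1* had 0. In the sequences, both on the plus strand, matches are in capitals, and the third capital run of *Mt2* is a match on the other strand. *Mt1* upstream is chr8:94178839-94179088 and *Mt2* upstream is chr8:94172368-94172617.
Mt1 upstream: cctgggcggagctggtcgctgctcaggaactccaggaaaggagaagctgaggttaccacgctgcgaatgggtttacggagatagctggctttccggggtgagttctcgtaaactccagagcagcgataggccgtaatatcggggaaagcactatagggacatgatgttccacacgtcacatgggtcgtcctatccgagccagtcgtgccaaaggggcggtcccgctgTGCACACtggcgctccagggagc
Mt2 upstream: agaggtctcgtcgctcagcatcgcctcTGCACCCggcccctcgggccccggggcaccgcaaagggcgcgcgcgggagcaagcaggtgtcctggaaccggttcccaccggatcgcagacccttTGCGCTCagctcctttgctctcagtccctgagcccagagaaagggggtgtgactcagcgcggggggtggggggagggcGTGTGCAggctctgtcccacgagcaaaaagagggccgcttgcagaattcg

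The libraries of *Yap5SA* AAV replicates 1 and 2 had 1361 barcodes in common (99.8% of the smaller one), whereas other pairs had 0 to 7 in common. Replicate 2 was therefore left out, and 15293 cells of 4 libraries were used, 2 per condition, with 13132765 to 50938304 UMIs each. Cells with at least 1000 UMIs and at most 15% mitochondrial UMIs were kept (10749). MG were the 6540 cells in which *Glul*, *Rlbp1*, *Slc1a3*, *Clu* and *Aqp4* together made up at least 0.5% of UMIs, and 210 of them lay between 0.5% and 0.6%. The numbers of MG were 1498 and 2898 for *mKate2* AAV replicates 1 and 2 and 803 and 1341 for *Yap5SA* AAV replicates 1 and 3, and the median UMIs of an MG were 6194.5, 2918.5, 10778 and 2920 in that order. The 5 MG markers that the rule did not use (*Sox9*, *Lhx2*, *Kcnj10*, *Dkk3* and *Car14*) summed in MG to 2393 to 3624 counts per 1000000 UMIs (CPM) per library. The sort also held other cells, which were clustered without the 10 genes and called by their markers. These names mean cells like the type, and among them were 1177 microglia or macrophages, 931 rods, 317 bipolar cells, 186 amacrine cells, 143 cones and 64 T cells, while 1389 cells outside MG had no name. Rods, cones, bipolar and amacrine cells in numbers of 20 or more came only from *mKate2* AAV replicate 2 and *Yap5SA* AAV replicate 3. These libraries also stood apart from the other pair in MG by Cell Ranger version, by lower depth and by the summed CPM of dissociation stress genes, which was 30545 and 20488 against 3493 and 5141. Since retinas of a condition were pooled, the libraries may differ only technically, and p-values measure the spread between libraries. Levels below are CPM of the counts summed over the cells of a type in a library, always in the order *mKate2* AAV replicates 1 and 2, then *Yap5SA* AAV replicates 1 and 3.

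**Figure D1:**
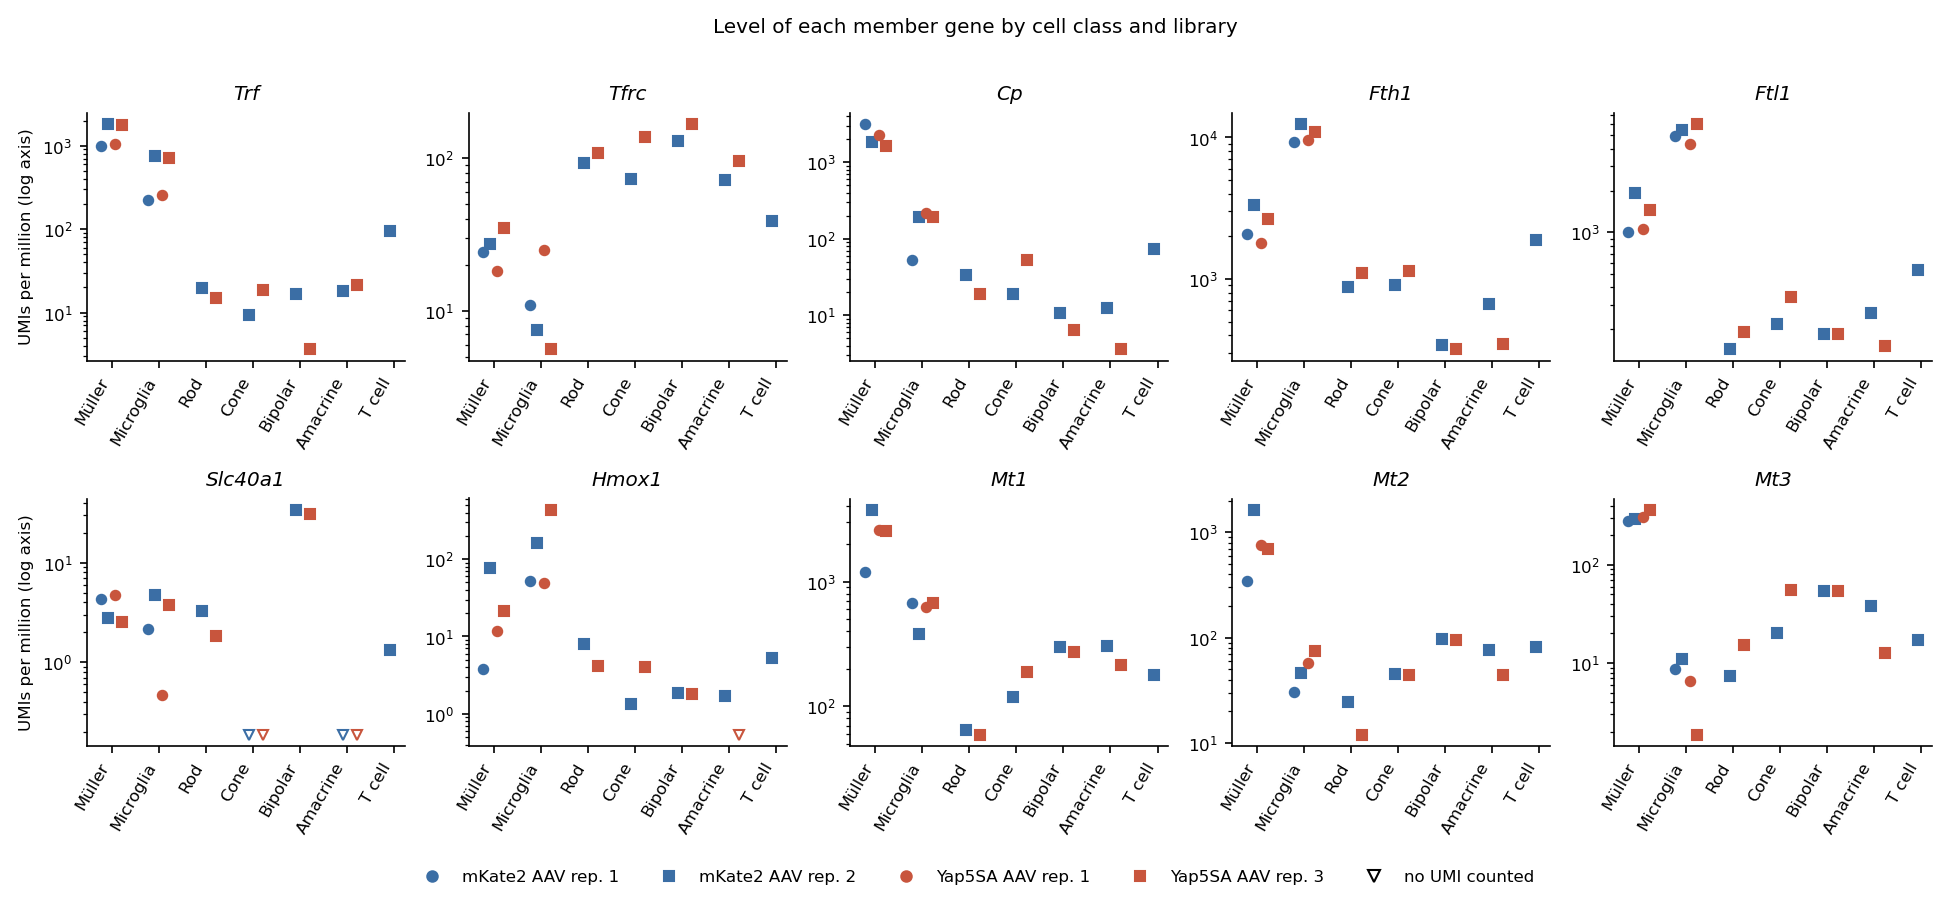
CPM of each of the 10 genes by cell type on a log axis, with 1 point per library and its AAV given by colour. *Fth1*, *Ftl1* and *Hmox1* had their highest median in microglia, *Tfrc* and *Slc40a1* in bipolar cells, and the other 5 genes in MG.

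*Trf*, which encodes the iron carrier transferrin (chromosome 9, 103081200 to 103107814, minus strand, GRCm39), was highest in MG. Its level in MG was 978, 1805, 1038 and 1744 CPM, and in microglia it was 223, 751, 257 and 702 CPM. MG were above microglia in each of the 4 libraries, by 2.40 to 4.39-fold. Rods had 19.6 and 14.7 CPM in the 2 libraries that held them, and amacrine cells, cones and bipolar cells had medians of 19.8, 14.1 and 10.1 CPM. The levels in rods were 1.09% and 0.846% of those in MG, where the MG markers outside the rule were at 1.42% and 1.00%. The 0.846% is taken against the MG of *Yap5SA* AAV replicate 3, whose level was lower without clusters of another name, as given below. The part of background in the levels of neurons was not tested, and no order is given among them. The log2 difference between MG and microglia was 1.34 (SE 0.30, adjusted p = 0.00170, edgeR quasi-likelihood test, Benjamini-Hochberg adjusted, library as a block). It was 0.81 (adjusted p = 0.137) when MG in clusters of another name were left out, and the level of *Yap5SA* AAV replicate 3 then fell to 434 CPM, below its microglia. Against rods the log2 difference was 6.79 (SE 0.44, adjusted p = 2.31e-07).

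*Tfrc*, the transferrin receptor that takes iron-loaded transferrin into cells (chromosome 16, 32427556 to 32451612, plus strand), was higher in retinal neurons than in MG. MG held 24.1, 27.4, 18.2 and 34.9 CPM. Bipolar cells held 128 and 166 CPM, rods 92.2 and 107 CPM, cones 72.2 and 137 CPM and amacrine cells 72.0 and 94.9 CPM, in *mKate2* AAV replicate 2 and *Yap5SA* AAV replicate 3. Bipolar cells lay above rods and amacrine cells and overlapped with cones, and all 4 neuronal types lay above MG. The log2 difference of MG from rods was -1.59 (SE 0.24, adjusted p = 0.000170, edgeR). Microglia held 10.8, 7.43, 24.8 and 5.59 CPM, a range that overlapped with MG (log2 difference 0.80, SE 0.46, adjusted p = 0.167). *Yap5SA* AAV replicate 1 was the exception among libraries, with microglia above MG, and without it the difference was 1.61 (adjusted p = 0.0121, edgeR). The microglia levels left in that fit rest on few UMIs. They were 5 and 41 UMIs in *mKate2* AAV replicates 1 and 2, and the 5.59 CPM of *Yap5SA* AAV replicate 3 equal 3 counts.

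*Cp* encodes ceruloplasmin, the copper ferroxidase that oxidises iron as it leaves cells (chromosome 3, 20011090 to 20063930, plus strand, overlapping *Hps3* on the other strand). MG held 3139, 1826, 2265 and 1617 CPM and microglia 51.9, 193, 216 and 190 CPM. MG were above all other types, with rods at 33.9 and 18.9 CPM and the medians of bipolar and amacrine cells at 8.48 and 7.99 CPM. The levels in rods were 1.85% and 1.17% of those in MG, where the MG markers outside the rule were at 1.42% and 1.00%. The part of background in these levels was not tested. The log2 difference of MG from microglia was 3.45 (SE 0.46, adjusted p = 2.19e-05) and from rods 6.16 (SE 0.43, adjusted p = 3.67e-07, edgeR). Of all *Cp* UMIs of the kept cells, 92.1% to 99.6% per library were in MG, which were 51.4% to 89.4% of the cells.

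The storage genes had the opposite order. *Fth1* and *Ftl1* encode the heavy and light chains of ferritin (chromosome 19, 9957911 to 9962462, plus strand, and chromosome 7, 45107367 to 45109308, minus strand). *Fth1* was at 9273, 12400, 9620 and 10896 CPM in microglia and at 2074, 3330, 1789 and 2652 CPM in MG. *Ftl1* was at 4949, 5487, 4298 and 6010 CPM in microglia and at 1002, 1907, 1048 and 1457 CPM in MG. For both genes the ranges were apart, and microglia were higher in each library. The log2 difference of MG from microglia was -2.46 for *Fth1* (SE 0.24, adjusted p = 1.05e-06) and -2.31 for *Ftl1* (SE 0.25, adjusted p = 2.37e-06, edgeR). MG were in turn above rods, at 876 and 1096 CPM of *Fth1* and 143 and 192 CPM of *Ftl1*, with log2 differences of 1.70 (adjusted p = 0.00593) and 3.43 (adjusted p = 2.51e-05). In *mKate2* AAV replicate 2 microglia were 16.4% of the kept cells and held 45.5% of the *Fth1* UMIs. A processed copy, *Ftl1-ps1*, was counted as a gene of its own at 12.2 to 59.0 CPM in MG, and reads that fit both could not be followed here.

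*Slc40a1*, the iron exporter ferroportin (chromosome 1, 45947211 to 45965683, minus strand), was near the limit of these data in MG and was clearest in bipolar cells. MG held 4.29, 2.80, 4.78 and 2.55 CPM, from 51, 52, 46 and 20 UMIs. Bipolar cells held 34.1 and 30.8 CPM in the 2 libraries that contained them, apart from all other types. Cones and amacrine cells of the same 2 libraries were at 0 UMIs, where 3 counts would be 1.01 to 5.37 CPM. Microglia held 2.16, 4.71, 0.468 and 3.73 CPM, from 1, 26, 1 and 2 UMIs. MG did not pass the test against microglia (log2 difference 0.07, SE 0.79, adjusted p = 0.945) or rods (0.15, SE 0.62, adjusted p = 0.850, edgeR), with standard errors that leave room for differences of more than 1 log2 unit. Bipolar cells were not tested against MG.

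*Hmox1*, the inducible enzyme that releases iron from haem (chromosome 8, 75820241 to 75827217, plus strand), had the widest spread among libraries in MG. MG held 3.79, 77.0, 11.7 and 21.4 CPM and microglia 51.9, 160, 49.6 and 436 CPM. The ranges overlapped, but microglia were higher in each of the 4 libraries, and the log2 difference of MG was -3.09 (SE 0.46, adjusted p = 6.18e-05, edgeR). Rods held 8.11 and 4.15 CPM, below MG of the same libraries (log2 difference 3.09, SE 0.36, adjusted p = 2.15e-05, edgeR). In these libraries 7.69% and 3.36% of MG and 7.55% and 2.26% of rods had at least 1 *Hmox1* UMI. With each cell thinned to 1000 UMIs the shares were 1.93% and 0.895% of MG and 1.32% and 0% of rods. In *mKate2* AAV replicate 2, 1331 of the 1432 *Hmox1* UMIs of MG came from the 608 cells of at least 6000 UMIs. The MG of *mKate2* AAV replicate 2 and *Yap5SA* AAV replicate 3, which were the highest in *Hmox1*, were also those highest in the dissociation stress genes. The part of dissociation in these levels was not tested.

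The metallothioneins *Mt1*, *Mt2* and *Mt3* lie together on chromosome 8, within 94879220 to 94906955 on the plus strand. *Mt1* was at 1201, 3764, 2581 and 2562 CPM in MG and at 675, 378, 626 and 674 CPM in microglia. *Mt2* was at 346, 1640, 766 and 700 CPM in MG and at 30.3, 46.2, 57.1 and 74.5 CPM in microglia. *Mt3*, the family member known from the brain, was at 277, 289, 307 and 363 CPM in MG and at 8.65, 11.1, 6.56 and 1.86 CPM in microglia. For all 3 genes MG were apart from microglia and from each neuronal type, and *mKate2* AAV replicate 1 was the lowest and *mKate2* AAV replicate 2 the highest library for *Mt1* and *Mt2* in MG. The log2 difference of MG from microglia was 1.70 for *Mt1* (SE 0.32, adjusted p = 0.000495), 3.60 for *Mt2* (SE 0.34, adjusted p = 7.09e-07) and 4.99 for *Mt3* (SE 0.40, adjusted p = 1.57e-07, edgeR). Rods were lower still in *Mt1*, at 64.0 and 59.0 CPM, and the differences of MG from rods were 5.76, 6.09 and 5.05 for *Mt1*, *Mt2* and *Mt3* (adjusted p = 1.49e-06, 2.64e-07 and 2.86e-07). Bipolar cells had the next highest median after MG for *Mt2*, 96.1 CPM, and for *Mt3*, 53.6 CPM.

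**Figure D2:**
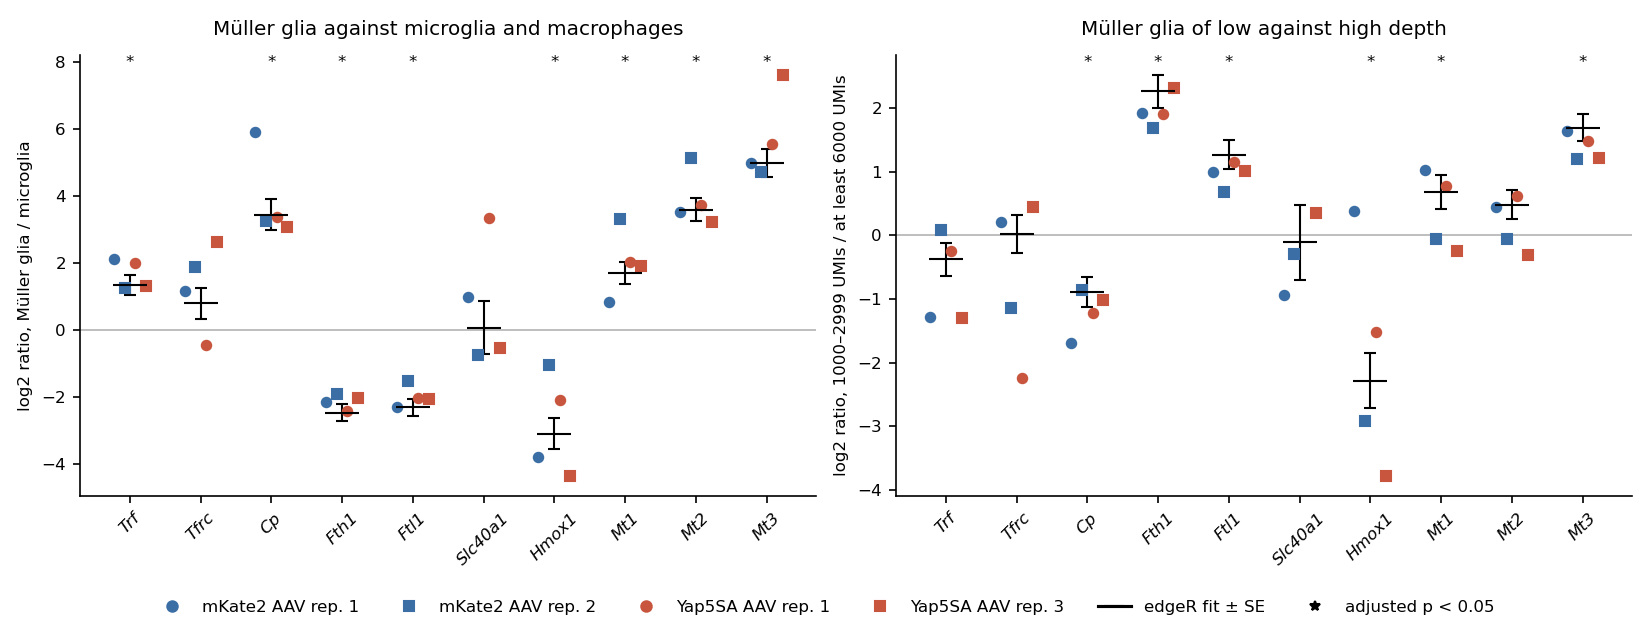
Log2 ratios of CPM within a library for the 10 genes, with 1 point per library. They are given for MG over microglia and for MG of 1000 to under 3000 UMIs over MG of at least 6000 UMIs. Bars show the edgeR fit with its SE, and stars an adjusted p under 0.05. *Trf*, *Cp*, *Mt1*, *Mt2* and *Mt3* were above 0 in all libraries against microglia. *Fth1* was below 0 against microglia and above 0 in the depth comparison in all libraries.

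In all, 5 of the 10 genes were higher in MG than in microglia and 3 were lower, where 29.1% and 20.8% of the 16200 genes tested were called in these directions (49.8% in all). Of the 68 other genes of iron, copper, zinc and haem handling 58 were tested, and 18 were higher and 15 lower in MG. *Steap4*, a metalloreductase (log2 difference 6.15), *Heph*, the membrane ferroxidase hephaestin (5.38), and *Lcn2*, a siderophore-binding protein (5.24), were the highest, and *Bach1*, a haem-sensing repressor (-3.96), *B2m*, the partner of HFE and of other class I chains (-3.26), and *Blvrb*, a biliverdin reductase (-2.46), the lowest. With library totals in place of TMM (trimmed mean of M values) factors the same 8 of the 10 genes were called, but the split of all calls went from 4712 higher and 3362 lower to 6316 and 2748, and the median of all genes from 0.32 to 0.67. Of the interaction of cell type with AAV, 6 genes were called and none of the 10. The 5 MG markers outside the rule, summed, were in microglia at 0.901% to 2.02% of their level in MG of the same library, while *Trf* was at 22.8% to 41.6% and *Cp* at 1.65% to 11.8%.

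Against rods, 8 of the 10 genes were higher in MG and 1, *Tfrc*, was lower, where 32.7% and 23.6% of the 14456 genes tested were called (56.3% in all). Of 59 other metal genes tested 29 were higher in MG, led by *Steap1* and the metalloreductase *Steap3* (8.44 and 6.06) and by *Heph* (7.42). Another 10 were lower, led by the copper pump *Atp7b* (-3.26), the mitochondrial iron importer *Slc25a37*, also called mitoferrin (-3.07), and *Fbxl5*, an iron-sensing ubiquitin ligase subunit (-2.13). This comparison rests on 2 libraries, each with 1 sum per type, and DESeq2 called 5530 genes where edgeR called 8134. Rod markers summed to 909 and 1778 CPM in the MG of these libraries and to 31395 and 62913 CPM in the rods.

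Among finer clusters, the highest *Trf* was in a cluster of 84 cells with the leading genes *Ttr*, *Rgr* and *Rpe65*, which are known from the pigment epithelium. Of these cells 97.6% met the MG rule, whose gene *Rlbp1* is also made by pigment epithelium. *Trf* in this cluster was 34746 CPM in *mKate2* AAV replicate 2 and 22525 CPM in *Yap5SA* AAV replicate 3. *Mt1* was at 7855 and 12743 CPM, *Mt2* at 1860 and 2761 CPM and *Mt3* at 646 and 1634 CPM in the same libraries, whereas *Cp* was at 7.18 and 10.7 CPM and *Slc40a1* at 0 UMIs. The cluster was thus high in the carrier and the metallothioneins and had little of the ferroxidase that marked other MG, but in *mKate2* AAV replicate 2 an unnamed cluster led by *Ifitm1*, *Gstm2* and *Fbln1* was above it in *Mt2* (2081 CPM) and *Mt3* (1130 CPM). It supplied 0, 19, 3 and 60 of the MG, which was 4.47% of the MG of *Yap5SA* AAV replicate 3, and in that library it held 76.9% of the *Trf* UMIs, 29.6% of the *Mt1* UMIs, 23.5% of the *Mt2* UMIs and 26.8% of the *Mt3* UMIs of MG. Without MG in clusters of another name (285 cells) *Trf* in MG was 980, 1568, 1018 and 434 CPM and *Mt1* was 1203, 3791, 2437 and 1896 CPM.

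**Figure D3:**
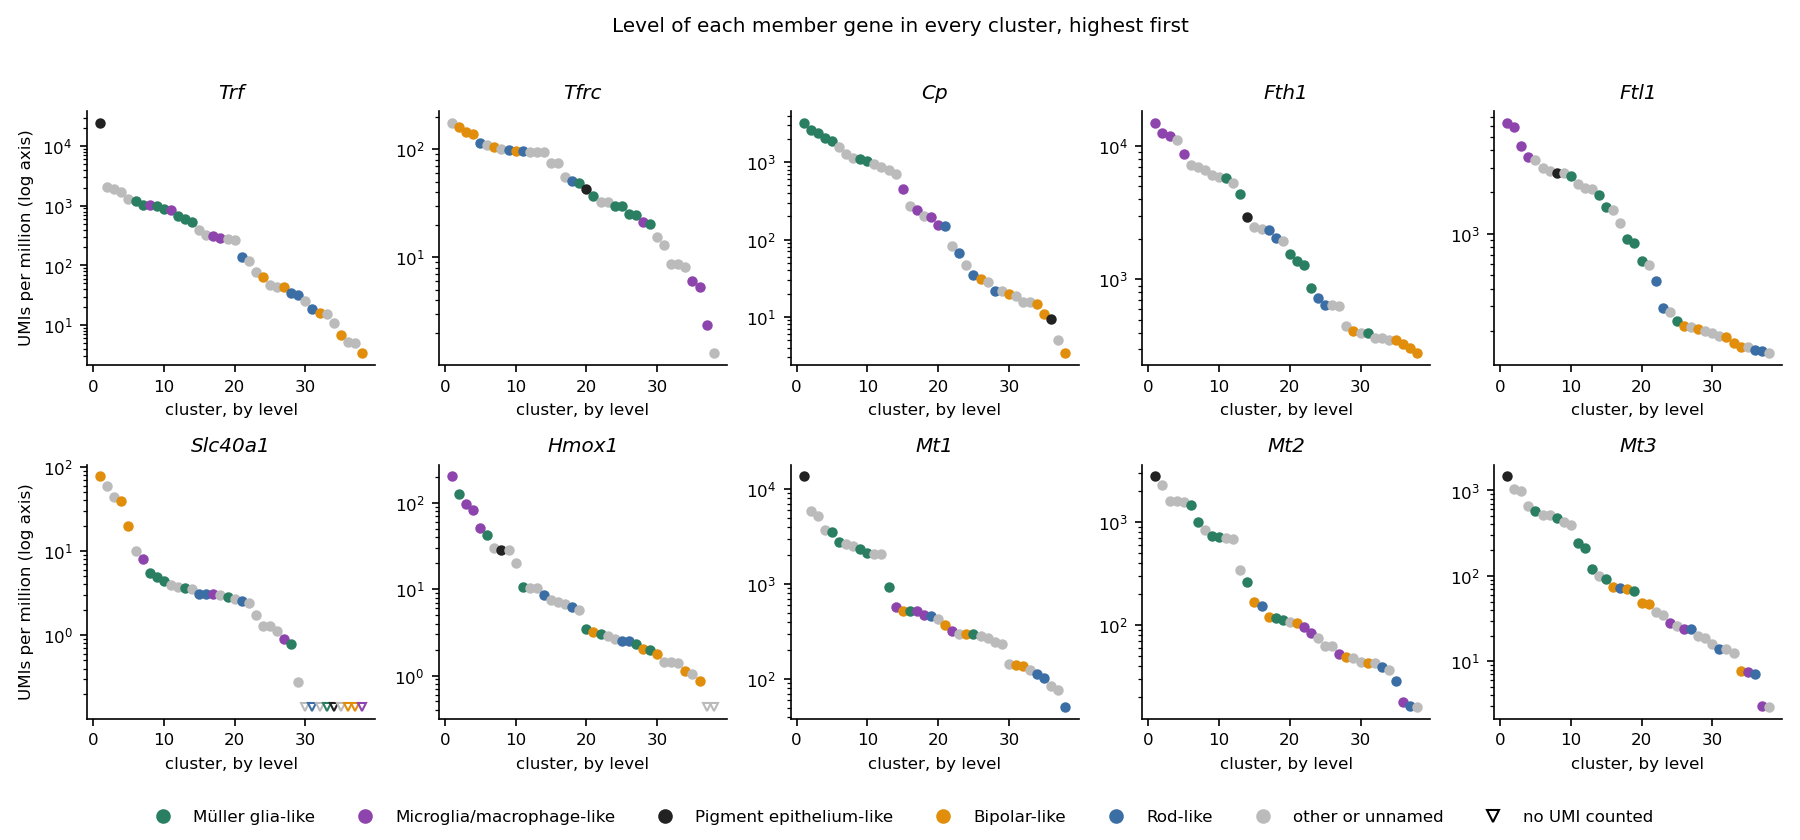
Levels of the 10 genes in clusters of the kept cells, as CPM of the counts pooled over libraries. The cluster led by *Ttr*, *Rgr* and *Rpe65* was the highest of the 38 clusters for *Trf*, *Mt1*, *Mt2* and *Mt3* by pooled CPM, and *Fth1* and *Ftl1* were highest in microglia clusters by pooled CPM, an order that did not hold in every library for *Fth1*, *Mt2* and *Mt3*.

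Other clusters divided the remaining genes, as pooled CPM with no test. *Cp* was highest in an MG cluster led by *Abca8a*, *Folh1* and *S1pr1*, at 3235 CPM, of whose 915 cells 840 came from *mKate2* AAV replicate 1. Within that library an MG cluster led by *Piezo2* was higher, at 5935 CPM from 21 cells against 3304 CPM, and in *Yap5SA* AAV replicate 1 these clusters were close, at 2393 and 2406 CPM. *Hmox1* was highest in a microglia cluster led by the chemokine genes *Cxcl2* and *Ccl4*, at 204 CPM, followed by an MG cluster led by *Ccn1*, *Maff* and *Vcl*, at 128 CPM. By library the first was at 350 CPM in *mKate2* AAV replicate 2 but at 55.7 and 61.8 CPM in replicate 1 of *mKate2* AAV and of *Yap5SA* AAV. The MG cluster was at 151 CPM in *mKate2* AAV replicate 2 and at 53.5 CPM in *Yap5SA* AAV replicate 3. In the latter the cluster named microglia and led by *Igkc* was above it at 254 CPM. That *Igkc* cluster took its name from 12 detected microglia markers. Its 10 leading genes held 0 of them and included the immunoglobulin genes *Igkc*, *Ighg2c* and *Iglv1*. The immediate early genes *Fosl1*, *Egr3* and *Jun* were also among the 10 leading genes of that MG cluster. *Fth1* was highest in the clusters named microglia that were led by *Igkc* and by *Cxcl13* and *Trem2*, at 14935 and 12555 CPM. It reached 11044 CPM in an unnamed cluster of 313 cells of which 86.9% met the MG rule. In *Yap5SA* AAV replicate 3 that unnamed cluster (21 cells) was at 13940 CPM, above the *Igkc* cluster at 13081 CPM, and in *mKate2* AAV replicate 1 (23 cells) it was at 18460 CPM, above the *Cxcl2* cluster at 8953 CPM. After the pigment epithelium cluster, *Mt1* was highest in an unnamed cluster led by *Dapl1*, *Hopx* and *Gstp1*, at 5944 CPM, and in an unnamed cluster led by the interferon-response genes *Tgtp1*, *Isg15* and *Ifit3*, at 5275 CPM. The *Dapl1* cluster had 159 and 156 of its 350 cells in replicate 1 of *mKate2* AAV and of *Yap5SA* AAV. The *Tgtp1* cluster had 947 of its 1012 cells in *mKate2* AAV replicate 2, the library with the highest *Mt1* and *Mt2* in MG. Their order is given here for pooled CPM only. *Slc40a1* was highest in a bipolar cluster led by *Il1rapl2*, *Hs3st4* and *Cdh9*, at 77.1 CPM, and then in an unnamed cluster of 38 cells led by *Rgs5*, *Mgp* and *Abcc9*, at 59.6 CPM. The same unnamed cluster had the highest *Tfrc*, 176 CPM.

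The share of cells with at least 1 UMI was compared after each cell was thinned to 1000 UMIs. In MG the median share over libraries was 82.3% for *Fth1*, 71.8% for *Mt1*, 69.0% for *Ftl1*, 63.5% for *Cp*, 38.8% for *Trf*, 38.7% for *Mt2* and 26.6% for *Mt3*. It was 1.78% for *Tfrc*, 0.759% for *Hmox1* and 0.236% for *Slc40a1*, and without thinning it was 13.6%, 5.23% and 1.93%. In microglia the shares were 95.8% for *Fth1* and 92.3% for *Ftl1*, against 11.5% for *Cp* and 3.08% for *Mt2*. For *Trf* the microglia share of 41.5% was close to that of MG, although the CPM were apart with all MG counted. Without MG in clusters of another name, MG of *Yap5SA* AAV replicate 3 were at 434 CPM, below its microglia at 702 CPM. Rods (median 9682 and 4629.5 UMIs per cell) and bipolar cells (23303 and 19411), types not known for making transferrin, had *Trf* shares of 2.42% and 0%. By library, the *Trf* share of MG was 35.2% (exact Clopper-Pearson 95% interval 32.8 to 37.7, 1498 cells), 58.6% (56.8 to 60.4), 42.3% (38.9 to 45.8) and 32.4% (29.9 to 34.9). These intervals cover counting error only.

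Within MG 6 of the 10 genes differed between cells of low and of high depth, where 38.0% of all genes tested did. Under the alternative settings 4 to 6 of the 10 were called, and *Mt1* and *Cp* each lost the call under at least 1. The comparison was made because the study set apart a low-count population. *Fth1* was at 6221, 6568, 5927 and 5969 CPM in MG of 1000 to under 3000 UMIs and at 1642, 2039, 1578 and 1202 CPM in MG of at least 6000 UMIs. *Mt3* was at 705, 460, 783 and 574 CPM and at 227, 200, 280 and 247 CPM. Both were higher in the shallow cells of every library, with ranges apart. *Ftl1* was likewise higher, at 1821, 2627, 2186 and 2253 CPM against 912, 1628, 986 and 1112 CPM. *Cp* went the other way, at 1058, 1192, 1019 and 967 CPM in shallow cells and 3421, 2147, 2364 and 1957 CPM in deep ones. *Hmox1* was at 4.63, 14.1, 3.996 and 2.34 CPM against 3.54, 107, 11.5 and 32.0 CPM, lower in shallow cells in all libraries but *mKate2* AAV replicate 1. Its levels in shallow cells rest on 4, 40, 1 and 3 UMIs, where 3 counts would be 1.06 to 12.0 CPM.

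The log2 differences of low from high depth were 2.27 for *Fth1* (SE 0.25, adjusted p = 1.47e-06), 1.69 for *Mt3* (SE 0.21, adjusted p = 4.16e-06) and 1.27 for *Ftl1* (SE 0.23, adjusted p = 0.000150, edgeR's quasi-likelihood test). For *Hmox1*, which was near the limit of these data in shallow cells, it was -2.28 (SE 0.43, adjusted p = 0.000280, edgeR). For *Cp* it was -0.88 (SE 0.24, adjusted p = 0.00539, edgeR). *Mt1* passed by little, with 0.68 (SE 0.26, adjusted p = 0.0428), and it was higher in shallow cells in only 2 of 4 libraries by CPM. With these, 4 of the 10 genes were higher and 2 lower in shallow cells, where 16.4% and 21.5% of the 13948 genes tested were called (38.0% in all). *Trf* (-0.37, adjusted p = 0.273), *Tfrc*, *Slc40a1* and *Mt2* were not called. With library totals in place of TMM factors the calls went from 2294 higher and 3001 lower to 1345 and 4717, the median of all genes from -0.15 to -0.48, *Mt1* was no longer called (0.38, adjusted p = 0.237) and *Trf* was (-0.68, adjusted p = 0.0330). Of 58 other metal genes 11 were higher, led by *Atox1* and *Cox17*, both copper chaperones (1.62 and 1.49), and *Gpx4*, the lipid peroxide reductase (1.43), and 12 were lower, led by the transporters *Flvcr2* (-3.18) and *Slc30a10* (-2.52) and by *Bmp6* (-2.50), an inducer of hepcidin. The ribosomal share of UMIs moved with depth in the same cells, with library means of 6.26% to 7.65% in the shallow and 1.79% to 3.42% in the deep MG. Dissociation stress genes summed to 2839, 6842, 3073 and 5310 CPM in the shallow and 3603, 42112, 5298 and 29009 CPM in the deep MG, and *Hmox1* was highest in the same deep MG of *mKate2* AAV replicate 2 and *Yap5SA* AAV replicate 3. The median mitochondrial share was 4.41% to 8.26% in the shallow and 0.917% to 3.01% in the deep MG, and in *Yap5SA* AAV replicate 3 pigment epithelium markers summed to 839 CPM in the shallow and 5093 CPM in the deep MG. The MG markers outside the rule were lower in shallow cells of every library (1507 to 2325 against 2463 to 4249 CPM), as were gliosis genes (2266 to 4702 against 3005 to 6802 CPM). The part of these measures in the differences, that of *Cp* included, was not tested. The interaction of depth with AAV called 0 genes by edgeR, with 255 at an unadjusted p under 0.05.

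**Figure D4:**
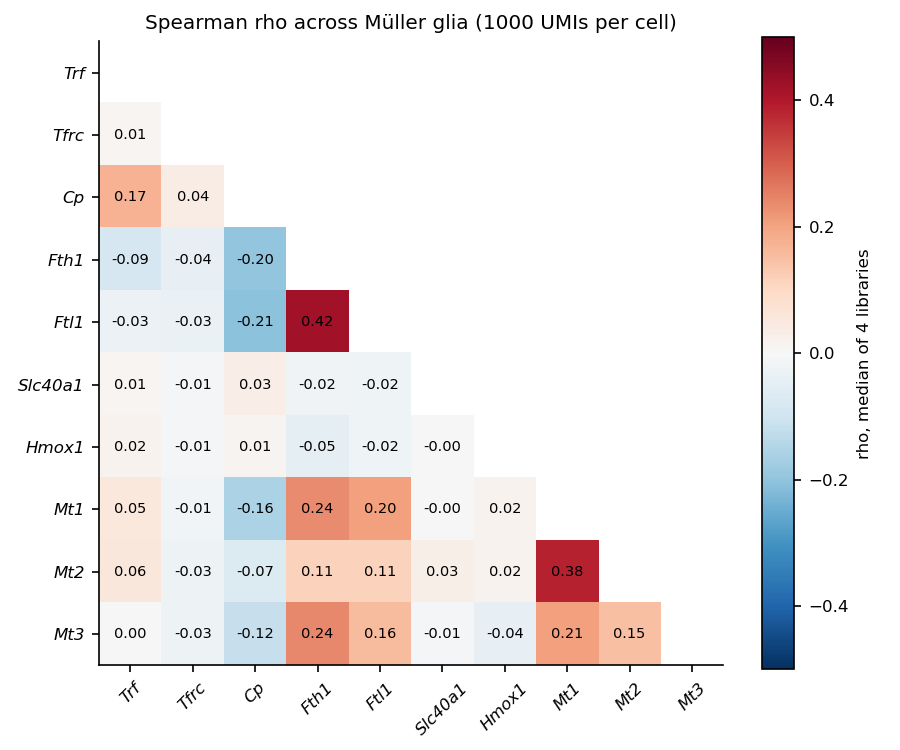
Spearman correlations between pairs of the 10 genes across MG thinned to 1000 UMIs, as the median of 4 libraries. The pairs of *Fth1* with *Ftl1* and of *Mt1* with *Mt2* stood at 0.42 and 0.38, and *Cp* with *Fth1* and *Ftl1* was negative.

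Across MG of a library the 2 ferritin chains went together, and so did *Mt1* and *Mt2*. At 1000 UMIs per cell Spearman's rho for *Fth1* and *Ftl1* was 0.43, 0.41, 0.50 and 0.38 in the 4 libraries, and for *Mt1* and *Mt2* it was 0.32, 0.51, 0.44 and 0.33. *Cp* had negative values with *Fth1* (median -0.20, from -0.39 to -0.11) and with *Ftl1* (median -0.21, from -0.28 to -0.09). *Trf* and *Cp* had a median of 0.17, with -0.04 in *Yap5SA* AAV replicate 3, the library with most cells of the pigment epithelium cluster. These are descriptions across 803 to 2898 cells of a library, which share that library, and cells thinned to 1 depth still differ in quality.

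Between the AAV conditions the 10 genes in MG did not pass the test, and edgeR called 0 of 15285 genes (0%). Of these, 30 had an unadjusted p under 0.05. DESeq2 also called 0 genes, with 52 under that limit. Several clusters of MG came mostly from 1 library, with 840 of 915 cells of the MG cluster led by *Abca8a* from *mKate2* AAV replicate 1, 508 of 553 of the one led by *Piezo2* from *Yap5SA* AAV replicate 1, 474 of 666 of another MG cluster from *Yap5SA* AAV replicate 3, and 947 of 1012 and 823 of 942 of a pair of unnamed clusters from *mKate2* AAV replicate 2. Mean levels were 1391 ± 585 CPM with *mKate2* AAV and 1391 ± 499 CPM with *Yap5SA* AAV for *Trf* (SD, n = 2 libraries each), 2482 ± 929 and 1941 ± 458 for *Cp*, 2702 ± 888 and 2220 ± 610 for *Fth1*, and 2483 ± 1812 and 2571 ± 13.9 for *Mt1*. For each of these genes the ranges of the conditions overlapped, and the SD of the *mKate2* AAV libraries was larger than the difference. Without MG in clusters of another name *Trf* was at 1274 ± 416 and 726 ± 413 CPM, ranges that still overlapped. That setting removes 178 MG of *Yap5SA* AAV replicate 3, among them the 60 cells of the pigment epithelium cluster. It also removes 92 MG of *mKate2* AAV replicate 2. With all MG, *Tfrc* was at 25.8 ± 2.38 and 26.5 ± 11.8 CPM, and *Ftl1* at 1455 ± 640 and 1252 ± 289 CPM. *Hmox1* was at 40.4 ± 51.8 and 16.6 ± 6.86 CPM and *Mt2* at 993 ± 915 and 733 ± 46.6 CPM, with *mKate2* AAV replicate 2 far above replicate 1 in both. *Slc40a1* was at 3.55 ± 1.06 and 3.67 ± 1.57 CPM. The 10 log2 differences of *Yap5SA* AAV from *mKate2* AAV ran from -1.48 for *Hmox1* (SE 1.34) to 0.14 for *Mt3* (SE 0.28), with a median of -0.24 beside -0.03 over all genes tested, and all 10 adjusted p were 1.00 (edgeR).

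**Figure D5:**
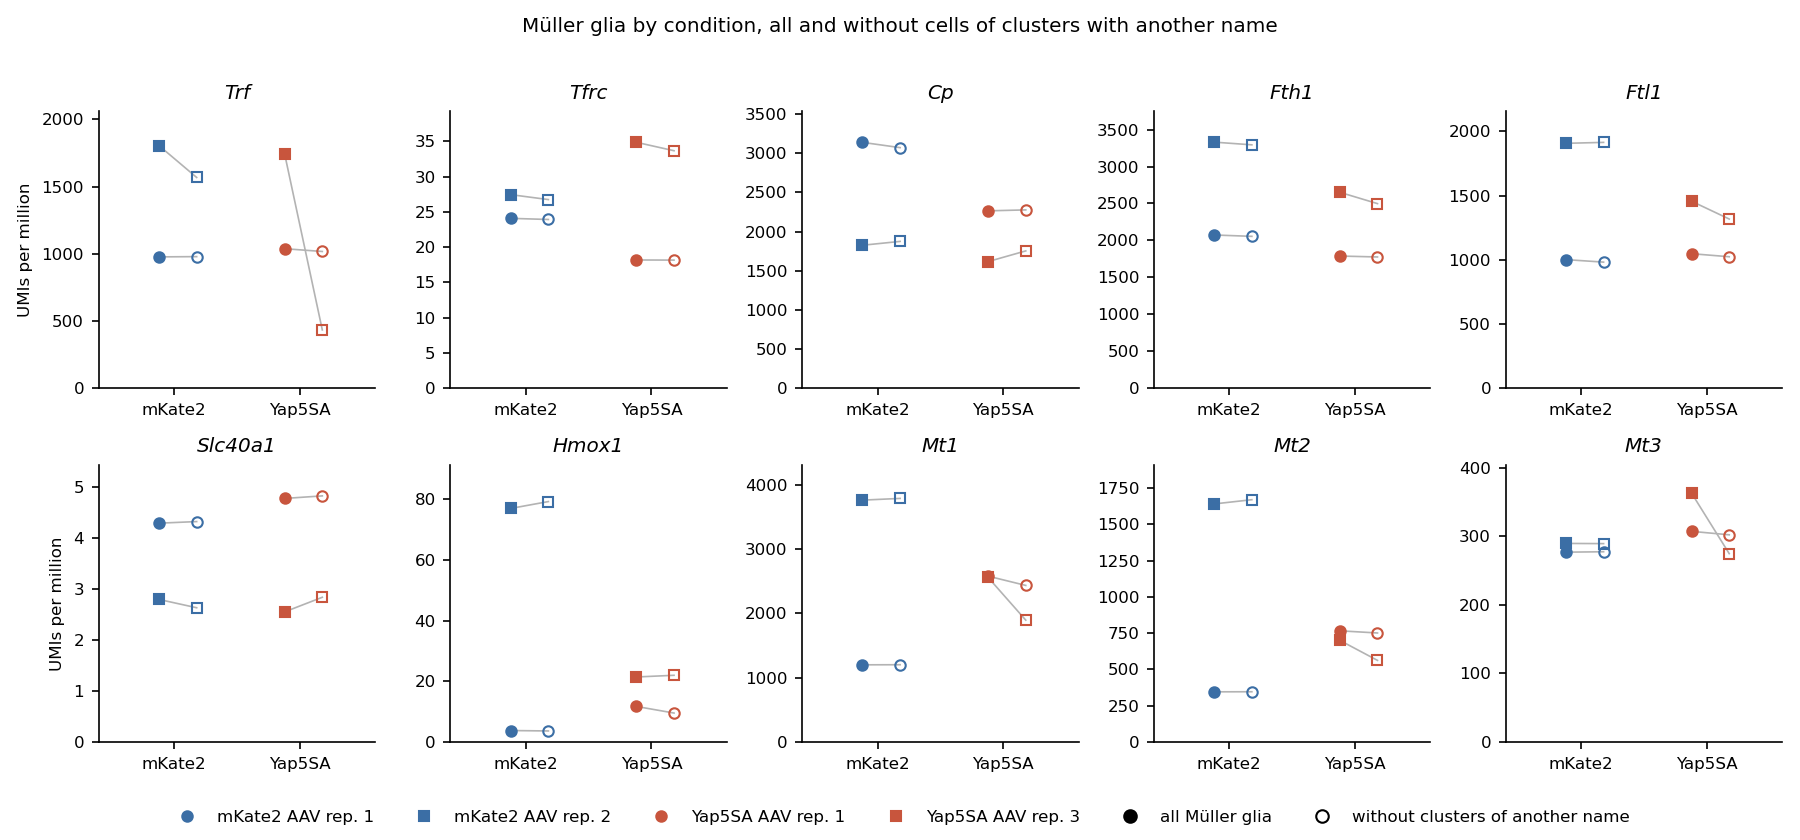
CPM of each of the 10 genes in MG with *mKate2* AAV and with *Yap5SA* AAV, on axes that start at 0, with the 2 Cell Ranger versions given by the marker. For each library a filled point gives all MG and an open point MG without clusters of another name. With all MG only *Mt3* had ranges that did not overlap, and *mKate2* AAV replicate 2 was the highest library for *Hmox1*, *Mt1* and *Mt2*.

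By ranges, *Mt3* alone did not overlap between the conditions, at 283 ± 9.01 and 335 ± 39.4 CPM, where 15.4% of all genes tested had ranges that did not overlap. Without MG in clusters of another name its levels were 277, 289, 302 and 274 CPM and overlapped. Within the libraries of Cell Ranger 8.0.0 (replicate 1 of each AAV) the log2 ratios of *Yap5SA* AAV over *mKate2* AAV were 1.63 for *Hmox1*, 1.103 for *Mt1* and 1.15 for *Mt2*, and within those of version 9.0.1 they were -1.84, -0.56 and -1.23. The sign of the 3 genes thus differed between the pairs, which hold 1 library of each condition and allow no test. For *Trf* without clusters of another name these ratios were 0.055 and -1.85. Of the other metal genes 58 were tested and 0 called by edgeR. On simulated counts of this comparison edgeR recovered 0% of 2-fold and 58.0% of 8-fold changes, so that differences of 2-fold were not detectable with 2 libraries a condition. An exact permutation test of 2 libraries against 2 could not give a two-sided p below 0.333.

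In microglia none of the 9 genes that could be tested passed between the AAV conditions, *Slc40a1* being too low. On simulated counts of this comparison edgeR recovered 0% of 2-fold changes. edgeR called 0 of 9077 genes (0%), 99 of them under 0.05 before adjustment. DESeq2 called 1, which was none of the 9. Log2 differences ran from -1.18 for *Mt3* (SE 0.88) to 1.09 for *Hmox1* (SE 1.00), and for both genes the sign was opposite to that in MG. *Mt2* was higher with *Yap5SA* AAV and *Mt3* lower without overlap, 2 of 9 genes where 25.0% of all genes tested had such ranges, and their levels were 38.2 ± 11.3 against 65.8 ± 12.3 CPM and 9.85 ± 1.70 against 4.21 ± 3.32 CPM (SD, n = 2). The *Mt3* levels rest on 4, 61, 14 and 1 UMIs and were 0.514% to 3.82% of those in MG, beside 0.901% to 2.02% for the MG markers outside the rule, and the *Mt2* levels on 14, 255, 122 and 40 UMIs. The microglia of *mKate2* AAV replicate 1 were 32 cells, and those of *mKate2* AAV replicate 2 and *Yap5SA* AAV replicate 1 came mostly from different clusters, the first from those led by *Igkc* and by *Cxcl13* and the second from the one led by *Cxcl2*. Fewer cells of a kind and less mRNA per cell cannot be told apart in such sums.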

How the data were processed

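For each library the authors deposited UMI counts per gene and cell, made with Cell Ranger on build GRCm39 for barcodes it called as cells, without normalization. The file headers give Cell Ranger 8.0.0 for *mKate2* AAV replicate 1 and *Yap5SA* AAV replicates 1 and 2 and version 9.0.1 for the other 2 libraries, whereas the submitters' processing notes give 8.0.0 for all 5. The 10 genes and all gene lists were chosen with earlier results of these data known. Genes named in the text are the 10 genes, the markers that check a cell type, the leading genes of clusters, at most 3 called genes per direction from the list of 68 other metal genes, and the 3 genes most alike to each of the 10.

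Cells were filtered at 1000 UMIs and 15% mitochondrial UMIs. Clusters were made per Leiden resolution 1 (scanpy 1.11.5, leidenalg 0.10.2, Python 3.11.15) without the 10 genes, other metal genes and mitochondrial genes, and were named where at least 4 markers of a type were detected in 10% of cells their mean relative level was 0.25 or more. A cluster stayed unnamed where its 10 leading genes held more markers of a different type, or where it was far shallower than its libraries and those genes held none of its own. The number of 4 was set after the first names were seen. MG were taken by the rule on 5 genes first, and names of clusters apply to the other cells. Doublets were not called, and leaving out the 5% of MG highest in markers of other types was run as an alternative. Free RNA was not removed.

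Counts were summed per library and cell type over at least 20 cells. Genes were filtered with filterByExpr (minimum count 10), scaled by TMM and tested with edgeR 4.0.16's quasi-likelihood test in R 4.3.3, with Benjamini-Hochberg adjustment over all genes tested at 0.05, and with the library as a block where types or depths of the same libraries were compared. DESeq2 1.42.0 was an alternative. Fold changes from edgeR are on the TMM scale and differ from ratios of CPM. The test was tried on simulated counts with 200 changed genes. Other alternatives were no filter on low counts, library totals for scaling, blocks for Cell Ranger version and replicate number, leaving out each library, stricter limits on cells, and *Yap5SA* AAV replicate 2 in place of replicate 1. The count of cells and UMIs per library sets the precision of each level.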

Additional observations from a re-analysis of the deposited data

How the results depend on the processing

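Calls for the 10 genes between cell types held under most settings. The exceptions were *Trf*, which against microglia lost its call without the 5% of MG highest in other markers (0.90) and without clusters of another name (0.81), and *Tfrc*, called without *Yap5SA* AAV replicate 1 (1.61). *Slc40a1* ran from -0.55 to 0.92 there as single libraries were left out. The comparison with rods could not be run without *mKate2* AAV replicate 2 or *Yap5SA* AAV replicate 3. Leaving out replicate 1 of either AAV, or replacing that of *Yap5SA* AAV, repeated the same fit. Those libraries gave no sum of rods, so these settings could not change a call. In the depth comparison 5295 genes were called, and 3361 to 5411 as single libraries were left out, with the lowest count without *mKate2* AAV replicate 2. *Cp* lost its call without *mKate2* AAV replicate 1 (-0.74), and *Mt1* without a filter (0.60), with library totals and without either *mKate2* AAV library or *Yap5SA* AAV replicate 1. *Tfrc* changed sign with DESeq2 (-0.067), library totals (-0.30), no filter (-0.052) and without clusters of another name (-0.0061), as did *Trf* without those clusters (0.061). Without single libraries *Tfrc* ran from -0.37 to 0.38 and *Slc40a1* from -0.43 to 0.086.

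No setting called any of the 10 genes between the AAV conditions, and most directions changed under some setting. In MG *Cp* kept its sign under all 15 alternatives (-0.68 to -0.12), and in microglia *Tfrc*, *Mt1*, *Mt2* and *Mt3* kept theirs wherever they were tested. For the other genes in MG, as single libraries were left out, the log2 difference ran from -0.57 to 0.54 for *Trf*, -0.63 to 0.35 for *Tfrc*, -0.78 to 0.12 for *Fth1*, -0.80 to 0.35 for *Ftl1*, -0.53 to 0.33 for *Slc40a1*, -2.41 to 2.15 for *Hmox1*, -0.75 to 1.12 for *Mt1*, -1.36 to 1.103 for *Mt2* and -0.0062 to 0.30 for *Mt3*. The highest values of *Fth1*, *Ftl1*, *Hmox1*, *Mt1* and *Mt2* were without *mKate2* AAV replicate 2. Library totals turned *Tfrc* (0.040), *Slc40a1* (0.055) and *Mt1* (0.051), a marker share of 1% turned *Tfrc* (0.011) and *Slc40a1* (0.052), the Cell Ranger version as a block turned *Mt1* (0.18), leaving out the 5% of MG highest in other markers turned *Mt3* (-0.064), and leaving out clusters of another name turned *Slc40a1* (0.060) and *Mt3* (-0.086). Those last settings moved *Trf* to -0.76 and -0.95. With the replicate block, over 5 libraries counted singly, which enters the capture of *Yap5SA* AAV replicates 1 and 2 as separate samples, 0 genes were called and *Slc40a1* (0.27), *Mt1* (0.12) and *Mt3* (-0.027) changed sign. Replicate numbers mark no shared animal or day in the labels. In microglia 0 genes were called, against 1 with DESeq2, 36 without a filter, 4 with the Cell Ranger version as a block and 0 to 37 as single libraries were left out, most of them without *Yap5SA* AAV replicate 1. Over those fits *Trf* ran from -1.19 to 1.19, *Cp* from -0.094 to 2.02, *Fth1* from -0.43 to 0.21, *Ftl1* from -0.47 to 0.21 and *Hmox1* from -1.38 to 2.31. At 3000 UMIs per cell the correlations were 0.53 for *Fth1* with *Ftl1* and 0.61 for *Mt1* with *Mt2*. The cell type with the highest level was the same under the 4 alternatives tried for each of the 10 genes. Levels did move, and under 1 alternative each the median in MG was 4111 in place of 2363 CPM for *Fth1* and 426 in place of 298 CPM for *Mt3*. *Fth1* in microglia stayed at 10208 to 10331 CPM. The causes of these changes were not tested.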

Other observations

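For each of the 10 genes, the genes with the most similar levels over 17 sums (library by cell type) were looked up among 14877 genes by Pearson's r of log2(CPM + 1), as a description. The sums share libraries and cell types, so high values are common among genes with 1 leading type. *Trf* was most like *Slc39a1*, a zinc transporter (0.97), *Cd9* and *Mgst1*. *Cp* was most like the urea transporter gene *Slc14a1* (0.98), *Rhoc* and *Anxa1*. *Fth1* was most like *Npc2*, which carries cholesterol in lysosomes (0.97), *Pnp* and *Snx5*, and *Ftl1* like *Cmtm3* (0.99), *Rab7b* and *Cebpa*, a myeloid transcription factor. *Hmox1* was most like *Bri3* (0.95), *Smagp* and *Dnase2a*, and *Tfrc* like *Ttc19* (0.97), *Prickle1* and *Ppp2r5e*. *Mt1* was most like *Spon1* (0.91), *H1f0* and *Alpk1*, *Mt2* like *Nudt4* (0.93), *Plpp3* and *Palld*, and *Mt3* like *Yap1* (0.95), *Tlcd4* and *Syde1*. The closest gene to *Slc40a1*, *3100003L05Rik*, was less similar (0.84), followed by *Mypn* and *Adamtsl2*.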
